A study of Mus musculus with 20 samples.

Results

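The step from 1 to 2 h of lipid A was examined in nascent transcripts of bone-marrow-derived macrophages (BMDMs) labelled *Rel*-/-. Its 4 libraries, replicates 1 and 2 (R1 and R2) at 1 h and at 2 h, are part of the 20 libraries of the series. All genes with a mean above 3 RPKM (reads scaled to gene length and library depth) at 1 h or at 2 h were compared, which were 2237 of the 24888 genes in the deposited table. In this hour the nascent RNA of *Serpina3g*, *Tnfsf10*, *Nos2* and *Nlrc5* rose, whereas that of *Jdp2*, *Kdm6b*, *Traf3* and *Nlrp3* fell, whichever library was left out. All of these but *Nlrp3* passed 3 RPKM only at their higher time point. The genes tested were not chosen anew when a library was left out.

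BMDMs are macrophages grown from marrow with a macrophage growth factor. The series holds WT and *Rel*-/- BMDMs at 0, 0.5, 1, 2 and 6 h of lipid A, the Toll-like receptor 4 ligand of lipopolysaccharide, with 2 replicates per genotype and time point, and asks which genes need the NF-κB subunit Rel. RNA bound to chromatin was sequenced, so that the reads report transcription more than stored mRNA. The mice were C57BL/6 males, and the mutant, on the same background, lacks *Rel* in all cells from the germline on. Marrow of several males was pooled for each experiment, and the ages given for the mice differ between parts of the methods. No other allele or agent separates the 1 h and 2 h groups, which share genotype, cell type and lipid A and differ in time.

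Toll-like receptor 4 signals through MyD88 and TRIF. The first wave of transcription, within minutes, is carried by NF-κB, MAP kinases and serum response factor and includes transcription factors, chemokines and the inhibitors that end the signal. TRIF activates IRF3, which with NF-κB switches on *Ifnb1*, and secreted interferon-β then induces a later wave through the STAT and IRF factors.

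*Rel* itself (NM_009044, chromosome 11 from 23641729 to 23670970 of NCBIM37) was read in all samples. In the libraries labelled *Rel*-/- it had 2.00 and 2.79 RPKM at 0 h, 10.5 and 15 at 0.5 h, 15.6 and 16.2 at 1 h, 9.24 and 9.96 at 2 h and 4.22 and 4.91 at 6 h. In WT it had 1.32 and 2.76 RPKM at 0 h, 7.48 and 20 at 0.5 h, 10.3 and 18.0 at 1 h, 9.74 and 12 at 2 h and 3.95 and 7.33 at 6 h. The genotypes overlapped at every time point, so reads over the whole gene do not separate them. Between 1 and 2 h both libraries labelled *Rel*-/- were lower, with a limma log2 fold change of −0.72 ± 0.48 (SE, adjusted p = 0.280), and adjusted p = 0.0327 in limma with 1 term for each time course (the replicate block).

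The macrophage label was checked against defining markers. *Adgre1* (F4/80) had 34.5 and 35.7 RPKM at 1 h and 13.6 and 12.4 RPKM at 2 h. *Spi1* (PU.1, the lineage-determining factor) had 12.2 and 14.9 RPKM at 1 h and 7.99 and 8.26 RPKM at 2 h. *Csf1r* (the receptor of the growth factor) had 7.43 and 6.46 RPKM at 1 h and 2.25 and 2.44 RPKM at 2 h. These genes were read at both times, and their 2 h libraries lay below the 1 h libraries. *Cd68* had 15 and 4.51 RPKM at 1 h and 6.26 and 5.74 RPKM at 2 h. *Cd14*, the lipopolysaccharide co-receptor, had 20.8 and 13.0 RPKM at 1 h and 5.94 and 10.3 RPKM at 2 h. *Lyz2* (lysozyme) had 5.23 and 3.24 RPKM at 1 h and 1.45 and 3.14 RPKM at 2 h. Of these, *Cd68* was the one whose groups overlapped, through its low 1 h R2. *Fcgr1* and *Mertk*, given below with other macrophage markers, had their higher values at 2 h. *Itgam* (CD11b), with 0.642 and 0.680 RPKM at 1 h and 0.531 and 0.748 RPKM at 2 h, was low and did not enter the comparison.

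Depth, inferred from the deposited values themselves, was 45439000 and 33958000 reads at 1 h and 27756000 and 32628000 reads at 2 h. The ribosomal RNA precursor *Rn45s* took 4.58 and 2.15% of the reads on genes at 1 h and 4.44 and 1.80% at 2 h, high in both replicate 1 libraries.

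Of the 2237 genes, 309 (13.8%) were higher at 2 h and 370 (16.5%) were lower, by limma on log2(RPKM + 0.1) at an adjusted p below 0.05. The median log2 fold change was 1.72 over the genes that rose (0.62 to 5.77), −1.86 over those that fell (−4.91 to −0.59) and 0.03 over all genes tested. The 2 h libraries lay above both 1 h libraries at 879 genes (39.3%), below both at 794 (35.5%) and overlapped them at 564 (25.2%). In limma with the replicate block, 567 genes (25.3%) were higher and 539 (24.1%) lower. Leaving out a library gave 197, 134, 173 and 139 genes higher and 246, 245, 293 and 212 lower without 1 h R1, 1 h R2, 2 h R1 and 2 h R2. Fewer cells that transcribe a gene and less nascent RNA per cell cannot be told apart in these bulk samples.

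The threshold of 3 RPKM shaped these counts, since a gene that passed it at only 1 time point had to have its higher mean there. Of 526 genes that passed only at 1 h, 226 were not called, and of 512 that passed only at 2 h, 262 were not called. Of the genes that rose, 250 passed only at 2 h, and of those that fell, 300 passed only at 1 h. Among the 1199 genes above 3 RPKM at both times, 59 were higher and 70 lower (10.8% together), or 22 and 31 when only these genes were tested. With genes chosen by WT values alone (a mean above 3 RPKM at any time point), 257 were higher and 426 lower of 2980.

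Just inside the threshold, *Srxn1* had 4.57 and 1.43 RPKM at 1 h and 3.92 and 0.681 RPKM at 2 h. *Pcf11* had 3.19 and 2.81 RPKM at 1 h and 2.1 and 1.98 RPKM at 2 h. *Tmem170b* had 1.46 and 1.34 RPKM at 1 h and 2.84 and 3.16 RPKM at 2 h, the only one of these with its higher mean at 2 h. Just outside it, *Ehbp1l1* had 2.91 and 3.08 RPKM at 1 h and 3.0 and 2.33 RPKM at 2 h. *Gla* had 1.14 and 0.631 RPKM at 1 h and 3.52 and 2.48 RPKM at 2 h. *Unc50* had 1.99 and 1.49 RPKM at 1 h and 3.56 and 2.44 RPKM at 2 h, like *Gla* with the higher mean at 2 h.

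**Figure D1:**
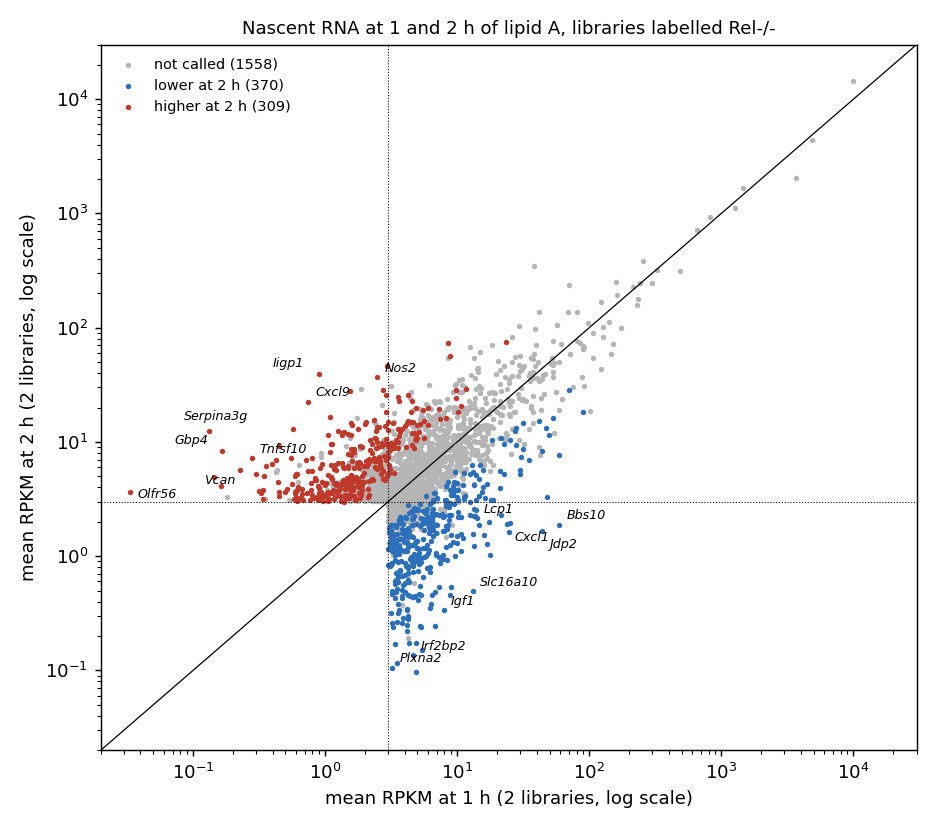
Mean RPKM of each of the 2237 genes in the libraries labelled *Rel*-/- at 1 h (x axis) and 2 h (y axis), both on log scales, with the 309 genes higher at 2 h, the 370 lower and the others in separate colours, the diagonal marking equal values and dotted lines marking 3 RPKM. *Serpina3g* goes from 0.132 to 12.4 RPKM and *Bbs10* from 59.4 to 1.88 RPKM.

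The largest rise was that of *Serpina3g* (NM_001353612, chromosome 12 from 105474357 to 105480149), a serine protease inhibitor induced in activated leukocytes, with 0.182 and 0.0813 RPKM at 1 h and 14.5 and 10.3 RPKM at 2 h. Both 2 h libraries stood far above both 1 h libraries, a 94.3-fold difference of the means (from 0.132 ± 0.0714 RPKM to 12.4 ± 2.95 RPKM, SD, n = 2), and the limma log2 fold change was 5.77 ± 0.76 (SE, adjusted p = 0.000165). Fitted fold changes are on the log2(RPKM + 0.1) scale and understate the change of genes that start near 0.

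Guanylate-binding proteins (GBPs) and immunity-related GTPases attack the vacuoles of intracellular pathogens. Of 21 such genes in the table, 11 were tested, of which 3 (27.3%) were higher at 2 h, 0 lower and 8 not called, against 13.8% higher and 16.5% lower of all genes tested. All 11 had both 2 h libraries above both 1 h libraries, as had 39.3% of all genes tested. Their median log2 fold change was 1.96, against 0.03 over all genes tested. Calls were 5 higher and 0 lower (25.3% and 24.1% of all genes) with the replicate block, 11 higher when only the 10 libraries labelled *Rel*-/- were fitted (646 of all 2237 genes), and 0, 1, 2 and 0 higher without 1 h R1, 1 h R2, 2 h R1 and 2 h R2. The 7 with means above 3 RPKM at both times gave 0 higher and 0 lower in a test of such genes alone (median 1.68). *Iigp1* (NM_001146275, chromosome 18 from 60535683 to 60552283) had 1.08 and 0.733 RPKM at 1 h and 37.8 and 40.3 RPKM at 2 h. Low in both 1 h libraries and high in both 2 h libraries, it had a limma log2 fold change of 5.31 ± 1.57 (SE, adjusted p = 0.0214), a call lost without any 1 of the 4 libraries (adjusted p from 0.0716 to 0.103). *Gbp4* (NM_001256005, chromosome 5 from 105544786 to 105568605) had 0.0887 and 0.241 RPKM at 1 h and 5.34 and 11.3 RPKM at 2 h. Its libraries separated by time, with the higher value in replicate 2 at each time, and its limma log2 fold change was 4.96 ± 1.28 (SE, adjusted p = 0.0108), not called without 1 h R1 (adjusted p = 0.0687) or 2 h R2 (adjusted p = 0.0843). *Gbp9* had 0.504 and 0.636 RPKM at 1 h and 10.9 and 15.2 RPKM at 2 h. It rose in both replicates, with a limma log2 fold change of 4.28 ± 1.12 (SE, adjusted p = 0.0114), a call lost without 1 h R1 (adjusted p = 0.0607) or 1 h R2 (adjusted p = 0.0529) or 2 h R2 (adjusted p = 0.0753).

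Interferon-stimulated genes encode antiviral effectors. Of 63 tested of 66 in the table, 10 (15.9%) were higher at 2 h, 0 lower and 53 not called, against 13.8% higher and 16.5% lower of all genes tested. Of the 63, 61 had both 2 h libraries above both 1 h libraries, as had 39.3% of all genes tested. Their median log2 fold change was 1.54, against 0.03 over all genes tested, and their RPKM summed to 1170 and 881 at 1 h and 2560 and 2390 at 2 h. The replicate block called 37 higher and 0 lower (25.3% and 24.1% of all genes), a fit on the 10 libraries labelled *Rel*-/- alone called 50 higher (646 of all 2237 genes), and leaving out a library left 5, 3, 4 and 3 higher without 1 h R1, 1 h R2, 2 h R1 and 2 h R2. Of these, the 49 with means above 3 RPKM at both times gave 2 higher and 0 lower in a test of such genes alone (median 1.35). *Tnfsf10*, the death ligand TRAIL, had 0.279 and 0.283 RPKM at 1 h and 6.30 and 8.11 RPKM at 2 h. It was below 1 RPKM in both 1 h libraries and rose in limma by a log2 fold change of 4.25 ± 0.90 (SE, adjusted p = 0.00372). *Helz2*, a helicase, had 25.9 and 20.7 RPKM at 1 h and 82.7 and 67.3 RPKM at 2 h. The gene was already transcribed at 1 h and its 2 h libraries were each above both 1 h libraries, with a limma log2 fold change of 1.68 ± 0.37 (SE, adjusted p = 0.00421). *Adar*, which deaminates adenosine in double-stranded RNA, had 4.67 and 4.49 RPKM at 1 h and 14.7 and 14.8 RPKM at 2 h. Its replicates lay close together at each time and the limma log2 fold change was 1.67 ± 0.40 (SE, adjusted p = 0.00778).

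Interferon regulatory, STAT and SOCS factors and the kinases beside them serve many cytokine receptors, and were tested in 26 of 34 cases, of which 6 (23.1%) were higher at 2 h, 1 (3.8%) lower and 19 not called, against 13.8% higher and 16.5% lower of all genes tested (median log2 fold change 0.92). There were 11 higher and 2 lower (25.3% and 24.1% of all genes) with the replicate block, and 3, 2, 3 and 2 higher and 1, 1, 1 and 0 lower without 1 h R1, 1 h R2, 2 h R1 and 2 h R2. Here the 19 with means above 3 RPKM at both times gave 0 higher and 0 lower in a test of such genes alone (median 0.63). The kinase gene *Jak3* had 0.775 and 0.755 RPKM at 1 h and 3.31 and 2.83 RPKM at 2 h. Both 1 h libraries were below 1 RPKM and the limma log2 fold change was 1.87 ± 0.38 (SE, adjusted p = 0.00298). *Stat5b* had 1.36 and 1.35 RPKM at 1 h and 3.99 and 4.74 RPKM at 2 h. It rose in both replicates with a limma log2 fold change of 1.62 ± 0.37 (SE, adjusted p = 0.00559), a call lost without 2 h R2 (adjusted p = 0.0520). *Irf2*, which competes with IRF1 at interferon-responsive promoters, had 3.79 and 3.54 RPKM at 1 h and 10.7 and 13.7 RPKM at 2 h. The groups did not overlap and the limma log2 fold change was 1.70 ± 0.47 (SE, adjusted p = 0.0147), a call lost without 1 h R1 (adjusted p = 0.0593) or 1 h R2 (adjusted p = 0.0763) or 2 h R2 (adjusted p = 0.104). *Stat6*, the interleukin-4 factor, had 7.34 and 5.62 RPKM at 1 h and 2.51 and 1.68 RPKM at 2 h. It went the other way, with a limma log2 fold change of −1.60 ± 0.36 (SE, adjusted p = 0.00514), not called without 2 h R2 (adjusted p = 0.0627).

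*Ifnb1* (NM_010510, chromosome 4 from 88167929 to 88168698), the interferon-β gene, had 0.0473 and 0.0632 RPKM at 0 h, 7.99 and 4.14 RPKM at 0.5 h and 0.296 and 0.295 RPKM at 6 h. In the step it had 25.2 and 8.15 RPKM at 1 h and 1.45 and 1.11 RPKM at 2 h, high in both 1 h libraries (most in replicate 1) and low in both 2 h libraries. The limma log2 fold change was −3.40 ± 0.88 (SE, adjusted p = 0.0111), and the call was lost without 1 h R1 (adjusted p = 0.105) or 2 h R2 (adjusted p = 0.0726). *Ifnb1* thus fell in the hour in which the interferon-stimulated genes named above rose, and a link between them was not tested.

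Effector genes of activated macrophages include those of enzymes such as the one that makes nitric oxide, and of complement and acute-phase proteins. Of 14 effector genes tested of 34, 4 (28.6%) were higher at 2 h, 0 lower and 10 not called, against 13.8% higher and 16.5% lower of all genes tested (median log2 fold change 0.74; 5 higher and 0 lower (25.3% and 24.1% of all genes) with the replicate block). The 8 with means above 3 RPKM at both times gave 0 higher and 0 lower in a test of such genes alone (median 0.11). *Nos2* (NM_001313922, chromosome 11 from 78738793 to 78773728), which makes nitric oxide, had 2.88 and 2.06 RPKM at 1 h and 39.6 and 33.8 RPKM at 2 h. Both 2 h libraries were far above both 1 h libraries, and the limma log2 fold change was 3.85 ± 0.60 (SE, adjusted p = 0.000455). *Cfb*, complement factor B, had 0.523 and 0.374 RPKM at 1 h and 9.73 and 8.54 RPKM at 2 h. It was below 1 RPKM in both 1 h libraries and rose with a limma log2 fold change of 4.08 ± 0.73 (SE, adjusted p = 0.00115). *Hk2*, the first enzyme of glycolysis, had 1.62 and 1.26 RPKM at 1 h and 3.88 and 5.08 RPKM at 2 h. Its 2 h libraries were above its 1 h libraries, with a limma log2 fold change of 1.57 ± 0.35 (SE, adjusted p = 0.00468) and no call without 2 h R2 (adjusted p = 0.0529).

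Of 20 antigen presentation genes tested of 32, 2 (10%) were higher at 2 h, 0 lower and 18 not called, against 13.8% higher and 16.5% lower of all genes tested (median log2 fold change 0.92, from 0.50 without 2 h R1 to 1.14 without 2 h R2). The replicate block called 10 higher and 1 lower (25.3% and 24.1% of all genes), and leaving out a library left 1, 1, 1 and 2 higher without 1 h R1, 1 h R2, 2 h R1 and 2 h R2. Of these, the 16 with means above 3 RPKM at both times gave 0 higher and 0 lower in a test of such genes alone (median 0.80). *Nlrc5*, the transactivator of MHC class I genes, had 2.21 and 3.54 RPKM at 1 h and 22.5 and 28.8 RPKM at 2 h. It was low in both 1 h libraries and rose with a limma log2 fold change of 3.14 ± 0.50 (SE, adjusted p = 0.000558). *Tap2*, a subunit of the peptide transporter, had 2.36 and 2.53 RPKM at 1 h and 11.1 and 8.90 RPKM at 2 h. The groups were separate and the limma log2 fold change was 1.98 ± 0.51 (SE, adjusted p = 0.0105), a call lost without 1 h R1 (adjusted p = 0.0553) or 1 h R2 (adjusted p = 0.0512) or 2 h R1 (adjusted p = 0.0655).

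Pattern-recognition genes moved in both directions. Of 18 tested of 27, 4 (22.2%) were higher at 2 h, 2 (11.1%) lower and 12 not called, against 13.8% higher and 16.5% lower of all genes tested (median log2 fold change 0.66, from 0.41 without 1 h R2 to 0.87 without 1 h R1), with 7 higher and 2 lower (25.3% and 24.1% of all genes) under the replicate block and 1, 1, 1 and 1 higher without 1 h R1, 1 h R2, 2 h R1 and 2 h R2. Here the 13 with means above 3 RPKM at both times gave 1 higher and 1 lower in a test of such genes alone (median 0.53). *Aim2*, the cytosolic DNA sensor, had 4.81 and 4.23 RPKM at 1 h and 11.5 and 12.4 RPKM at 2 h. It rose in both replicates, with a limma log2 fold change of 1.39 ± 0.28 (SE, adjusted p = 0.00268). *Tlr3*, the receptor of double-stranded RNA, had 0.521 and 0.475 RPKM at 1 h and 3.49 and 3.76 RPKM at 2 h. Both 2 h libraries were high and the limma log2 fold change was 2.64 ± 0.73 (SE, adjusted p = 0.0157), a call lost without any 1 of the 4 libraries (adjusted p from 0.0622 to 0.0832). *Pycard*, the inflammasome adaptor ASC, had 0.529 and 0.814 RPKM at 1 h and 3.47 and 3.55 RPKM at 2 h. It was below 1 RPKM in both 1 h libraries, and its limma log2 fold change was 2.25 ± 0.69 (SE, adjusted p = 0.0256), not called without any 1 of the 4 libraries (adjusted p from 0.0670 to 0.137). *Nlrp3*, the sensor of the inflammasome that is primed by NF-κB, had 37.5 and 32.4 RPKM at 1 h and 7.07 and 6.87 RPKM at 2 h. It fell in both replicates, with a limma log2 fold change of −2.31 ± 0.45 (SE, adjusted p = 0.00206). *Ticam1*, which encodes TRIF, had 3.62 and 3.58 RPKM at 1 h and 1.26 and 1.23 RPKM at 2 h. Its replicates were nearly equal at each time and it fell with a limma log2 fold change of −1.46 ± 0.30 (SE, adjusted p = 0.00330).

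Chemokines recruit leukocytes to infected tissue. Of 15 tested of 28, 1 (6.7%) was higher at 2 h, 2 (13.3%) lower and 12 not called, against 13.8% higher and 16.5% lower of all genes tested (median log2 fold change −0.38, from −1.14 without 1 h R2 to 0.35 without 1 h R1; 2 higher and 2 lower (25.3% and 24.1% of all genes) with the replicate block). The counts were 1, 0, 1 and 0 higher and 0, 2, 2 and 0 lower without 1 h R1, 1 h R2, 2 h R1 and 2 h R2. The 11 with means above 3 RPKM at both times gave 0 higher and 0 lower in a test of such genes alone (median −0.40). *Cxcl9* (NM_008599, chromosome 5 from 92750357 to 92757105), an interferon-γ-inducible ligand of CXCR3 on T cells, had 1.08 and 0.410 RPKM at 1 h and 22.3 and 22.7 RPKM at 2 h. It was low in both 1 h libraries and high in both 2 h libraries, a 30.2-fold difference of the means, with a limma log2 fold change of 4.87 ± 1.2 (SE, adjusted p = 0.00833) and no call without 1 h R2 (adjusted p = 0.0680) or 2 h R2 (adjusted p = 0.0505). *Cxcl1* (NM_008176, chromosome 5 from 91320271 to 91322141), which attracts neutrophils, had 33.8 and 14.2 RPKM at 1 h and 2.87 and 0.934 RPKM at 2 h. R1 was the higher at each time and the groups did not overlap, and it fell with a limma log2 fold change of −3.65 ± 1.06 (SE, adjusted p = 0.0195), a call lost without 1 h R1 (adjusted p = 0.131) or 2 h R2 (adjusted p = 0.157). Its relative *Cxcl2* (NM_009140, chromosome 5 from 91332925 to 91334964) had 86.0 and 32.2 RPKM at 1 h and 11.6 and 3.64 RPKM at 2 h. It again had its higher values in R1 and the groups did not overlap, with a limma log2 fold change of −3.0 ± 0.96 (SE, adjusted p = 0.0308), not called without 1 h R1 (adjusted p = 0.198) or 2 h R2 (adjusted p = 0.234).

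Promoters of *Cxcl1*, *Cxcl2*, *Ifnb1*, *Cxcl9* and *Serpina3g* are shown, chosen from the named genes, which moved in opposite directions. Only promoters that hold an NF-κB motif (GG, any 3 bases, TTCC, on either strand) were printed. That each holds it was thus fixed by the choice, and those of other named genes were not printed. Capitals mark the matches in the 250 bases before the start, from RefSeq. These promoters are on GRCm38.p6, a later build than that of the deposited table, and were matched to it by gene symbol. Over the same 250 bases, the *Cxcl9* promoter also held 1 match of the interferon-stimulated response element. The others held no match of the pattern searched, and sites that depart from it were not read. The NF-κB motif occurs in 18.5% of the 32851 promoters of the table, and a match is a description of the letters.
Cxcl1 (chr5:90890995-90891244, plus strand): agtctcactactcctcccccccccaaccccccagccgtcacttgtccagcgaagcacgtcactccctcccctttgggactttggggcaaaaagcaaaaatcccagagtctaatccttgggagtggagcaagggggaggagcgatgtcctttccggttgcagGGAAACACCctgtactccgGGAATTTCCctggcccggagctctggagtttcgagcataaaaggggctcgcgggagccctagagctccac
Cxcl2 (chr5:90903649-90903898, plus strand): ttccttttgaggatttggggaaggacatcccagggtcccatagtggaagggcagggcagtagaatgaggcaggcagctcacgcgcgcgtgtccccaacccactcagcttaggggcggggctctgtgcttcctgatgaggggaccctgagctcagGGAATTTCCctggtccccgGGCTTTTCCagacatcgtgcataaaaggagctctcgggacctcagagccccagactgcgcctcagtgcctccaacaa
Ifnb1 (chr4:88522795-88523044, minus strand): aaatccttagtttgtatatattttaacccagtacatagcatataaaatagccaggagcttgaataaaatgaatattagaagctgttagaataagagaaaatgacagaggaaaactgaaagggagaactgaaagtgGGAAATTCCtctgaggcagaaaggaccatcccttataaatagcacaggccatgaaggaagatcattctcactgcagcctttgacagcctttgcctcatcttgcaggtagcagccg
Cxcl9 (chr5:92328080-92328329, minus strand): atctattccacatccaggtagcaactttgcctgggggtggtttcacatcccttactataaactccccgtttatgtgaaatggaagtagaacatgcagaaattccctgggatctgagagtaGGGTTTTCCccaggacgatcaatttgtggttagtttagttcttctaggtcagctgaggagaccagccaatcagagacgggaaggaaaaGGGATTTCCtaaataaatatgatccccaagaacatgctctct
Serpina3g (chr12:104235897-104236146, plus strand): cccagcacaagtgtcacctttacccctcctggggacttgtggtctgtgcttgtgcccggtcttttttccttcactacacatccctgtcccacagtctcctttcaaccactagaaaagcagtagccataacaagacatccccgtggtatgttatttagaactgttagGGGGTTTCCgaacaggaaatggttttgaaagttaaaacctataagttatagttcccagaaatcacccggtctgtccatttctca
The matches begin 89 and 70 bases before the start of *Cxcl1*, 96 and 77 before that of *Cxcl2*, 115 before that of *Ifnb1*, 130 and 42 before that of *Cxcl9* and 84 before that of *Serpina3g*. A comparison of motif shares between the genes that rose and fell was void, since a promoter was found for 72.8% and 78.4% of them, under the 80% needed.

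Of 18 cytokine genes tested of 37, 3 (16.7%) were higher at 2 h, 3 (16.7%) lower and 12 not called, against 13.8% higher and 16.5% lower of all genes tested (median log2 fold change −0.02, from −0.18 without 1 h R1 to 0.11 without 1 h R2), with 7 higher and 6 lower (25.3% and 24.1% of all genes) under the replicate block and 2, 1, 1 and 1 higher and 1, 3, 3 and 2 lower without 1 h R1, 1 h R2, 2 h R1 and 2 h R2. Of these, the 10 with means above 3 RPKM at both times gave 0 higher and 0 lower in a test of such genes alone (median 0.40). *Il6* had 5.26 and 2.84 RPKM at 1 h and 15.6 and 12.1 RPKM at 2 h. Both 2 h libraries were above both 1 h libraries and the limma log2 fold change was 1.80 ± 0.62 (SE, adjusted p = 0.0440), a call lost without any 1 of the 4 libraries (adjusted p from 0.0605 to 0.242). *Il18bp*, the decoy of interleukin-18, had 1.92 and 1.65 RPKM at 1 h and 5.98 and 5.90 RPKM at 2 h. Both replicates rose with a limma log2 fold change of 1.68 ± 0.46 (SE, adjusted p = 0.0140), not called without 1 h R2 (adjusted p = 0.0815) or 2 h R1 (adjusted p = 0.0627) or 2 h R2 (adjusted p = 0.0712). *Tgfb1*, an anti-inflammatory cytokine, had 6.54 and 5.94 RPKM at 1 h and 1.94 and 1.45 RPKM at 2 h. Both 2 h libraries were the lower and it fell with a limma log2 fold change of −1.83 ± 0.30 (SE, adjusted p = 0.000659).

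Among the 15 largest falls were genes of transcriptional regulators. *Jdp2* (NM_001205053, chromosome 12 from 86940968 to 86980828), a repressor at AP-1 sites, had 39.1 and 48.2 RPKM at 1 h and 2.12 and 1.17 RPKM at 2 h. It was high in both 1 h libraries and 26.5-fold lower at 2 h, with a limma log2 fold change of −4.69 ± 0.72 (SE, adjusted p = 0.000427). *Kdm6b*, a demethylase of histone H3 lysine 27, had 7.72 and 9.81 RPKM at 1 h and 0.422 and 0.487 RPKM at 2 h. Its replicates were close at each time and the limma log2 fold change was −3.99 ± 0.43 (SE, adjusted p = 4.72e-05). *Irf2bp2*, a corepressor of IRF2, had 5.51 and 3.78 RPKM at 1 h and 0.147 and 0.125 RPKM at 2 h. It fell to values near 0 in both 2 h libraries, with a limma log2 fold change of −4.31 ± 0.59 (SE, adjusted p = 0.000194).

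Immediate-early factors, the first transcription factors that a stimulus induces, were also tested as a list. Of 14 immediate-early factors tested of 36, 0 were higher at 2 h, 1 (7.1%) lower and 13 not called, against 13.8% higher and 16.5% lower of all genes tested (median log2 fold change −0.83), with 1 higher and 7 lower (25.3% and 24.1% of all genes) under the replicate block and 0, 1, 0 and 0 lower without 1 h R1, 1 h R2, 2 h R1 and 2 h R2. Here the 8 with means above 3 RPKM at both times gave 0 higher and 0 lower in a test of such genes alone (median −0.54). The gene called was *Atf3*, a repressor of inflammatory promoters, with 89.0 and 52.3 RPKM at 1 h and 29.3 and 27.1 RPKM at 2 h. At 2 h both libraries were below both 1 h libraries and the limma log2 fold change was −1.27 ± 0.39 (SE, adjusted p = 0.0242), a call lost without 1 h R1 (adjusted p = 0.195) or 2 h R1 (adjusted p = 0.0774) or 2 h R2 (adjusted p = 0.119).

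MAP kinase phosphatase and kinase genes were tested in 18 of 41 cases, of which 0 were higher at 2 h, 7 (38.9%) lower and 11 not called, against 13.8% higher and 16.5% lower of all genes tested (median log2 fold change −0.67, from −1.02 without 1 h R2 to −0.48 without 2 h R2). There were 2 higher and 8 lower (25.3% and 24.1% of all genes) with the replicate block and 5, 6, 7 and 4 lower without 1 h R1, 1 h R2, 2 h R1 and 2 h R2. The 8 with means above 3 RPKM at both times gave 0 higher and 0 lower in a test of such genes alone (median 0.11). *Dusp4*, a nuclear phosphatase of MAP kinases, had 7.6 and 5.88 RPKM at 1 h and 0.367 and 0.125 RPKM at 2 h. Its 2 h libraries were far below its 1 h libraries, with a limma log2 fold change of −4.39 ± 1.13 (SE, adjusted p = 0.0108) and no call without 1 h R1 (adjusted p = 0.0600) or 2 h R2 (adjusted p = 0.0871). *Dusp5*, a phosphatase of ERK, had 2.71 and 5.02 RPKM at 1 h and 0.303 and 0.276 RPKM at 2 h. It fell in both replicates with a limma log2 fold change of −3.28 ± 0.36 (SE, adjusted p = 6.47e-05). *Dusp3* had 3.70 and 2.72 RPKM at 1 h and 0.705 and 0.290 RPKM at 2 h. The groups were separate and the limma log2 fold change was −2.55 ± 0.34 (SE, adjusted p = 0.000182). *Map4k4*, a kinase upstream of JNK, had 3.06 and 4.50 RPKM at 1 h and 0.815 and 1.01 RPKM at 2 h. The groups were separate and it fell with a limma log2 fold change of −1.92 ± 0.30 (SE, adjusted p = 0.000465).

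Among NF-κB subunits, inhibitors and adaptors, 25 of 30 were tested, of which 0 were higher at 2 h, 5 (20%) lower and 20 not called, against 13.8% higher and 16.5% lower of all genes tested (median log2 fold change −0.30, from −0.29 without 2 h R1 to −0.09 without 2 h R2), with 2 higher and 9 lower (25.3% and 24.1% of all genes) under the replicate block and 3, 4, 4 and 3 lower without 1 h R1, 1 h R2, 2 h R1 and 2 h R2. Of these, the 20 with means above 3 RPKM at both times gave 0 higher and 1 lower in a test of such genes alone (median −0.29). *Traf3*, an adaptor that restrains noncanonical NF-κB, had 5.68 and 6.65 RPKM at 1 h and 0.374 and 0.336 RPKM at 2 h. It was low in both 2 h libraries, with a limma log2 fold change of −3.78 ± 0.36 (SE, adjusted p = 2.13e-05). *Nfkbid*, a nuclear IκB protein, had 5.82 and 4.33 RPKM at 1 h and 1.16 and 0.868 RPKM at 2 h. It fell in both replicates with a limma log2 fold change of −2.21 ± 0.45 (SE, adjusted p = 0.00293). *Tnip1*, a partner of the ubiquitin-editing enzyme A20, had 11.9 and 19.4 RPKM at 1 h and 5.09 and 6.24 RPKM at 2 h. The groups did not overlap and the limma log2 fold change was −1.42 ± 0.29 (SE, adjusted p = 0.00303).

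The subunit genes themselves were not called. *Nfkb1* (p50) had 24.2 and 31.7 RPKM at 1 h and 12.1 and 14.2 RPKM at 2 h. At 2 h both libraries were the lower, with a limma log2 fold change of −1.07 ± 0.41 (SE, adjusted p = 0.0652) and adjusted p = 0.00876 with the replicate block. *Rela* had 8.27 and 7.51 RPKM at 1 h and 7.83 and 7.19 RPKM at 2 h. The libraries overlapped and its limma log2 fold change was −0.07 ± 0.25 (SE, adjusted p = 0.860). *Nfkb2* (p52) had 28.9 and 21.6 RPKM at 1 h and 23.8 and 17.4 RPKM at 2 h. They overlapped here too, with a limma log2 fold change of −0.30 ± 0.37 (SE, adjusted p = 0.582). *Relb* had 9.91 and 10.2 RPKM at 1 h and 6.13 and 5.70 RPKM at 2 h. Its 2 h libraries were the lower, with a limma log2 fold change of −0.75 ± 0.45 (SE, adjusted p = 0.223).

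The study names 6 genes as Rel-dependent, a choice made on these libraries. Of these, 3 were tested, of which 0 were higher at 2 h, 2 lower and 1 not called, against 13.8% higher and 16.5% lower of all genes tested, with a median log2 fold change of −2.78 and 1, 2, 2 and 2 lower without 1 h R1, 1 h R2, 2 h R1 and 2 h R2. Of these, the 1 with means above 3 RPKM at both times gave 0 higher and 0 lower in a test of such genes alone (median −0.56). *Orai2*, a pore subunit of calcium-entry channels, had 3.07 and 3.26 RPKM at 1 h and 0.318 and 0.313 RPKM at 2 h. It was 10-fold lower at 2 h, with a limma log2 fold change of −2.97 ± 0.32 (SE, adjusted p = 5.46e-05). *Tnfsf9*, the 4-1BB ligand, had 13.2 and 6.71 RPKM at 1 h and 1.58 and 1.05 RPKM at 2 h. Both replicates fell with a limma log2 fold change of −2.78 ± 0.62 (SE, adjusted p = 0.00481), a call lost without 1 h R1 (adjusted p = 0.0507). *Noct*, a phosphatase of NADPH with daily rhythm, had 4.88 and 8.08 RPKM at 1 h and 3.41 and 5.27 RPKM at 2 h. The groups overlapped and the limma log2 fold change was −0.56 ± 0.54 (SE, adjusted p = 0.463). *Il12b*, the p40 subunit of interleukins 12 and 23, stayed below the threshold with 1.33 and 0.721 RPKM at 1 h and 0.0444 and 0.0273 RPKM at 2 h. *Clcf1* had 0.0831 and 0.133 RPKM at 1 h and 0.0544 and 0.0496 RPKM at 2 h and *Il4i1* 2.78 and 1.71 RPKM at 1 h and 0.845 and 0.495 RPKM at 2 h, below it too.

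Other genes among the 15 largest falls encode varied proteins. *Bbs10* (NM_027914, chromosome 10 from 110735735 to 110738792), a chaperonin-like gene of cilia, had 62.7 and 56.2 RPKM at 1 h and 1.81 and 1.94 RPKM at 2 h. Its replicates lay close together and it was 31.6-fold lower at 2 h, with a limma log2 fold change of −4.91 ± 0.27 (SE, adjusted p = 2.70e-07). The gene lies next to *Osbpl8*, which was also called lower. *Slc16a10*, an aromatic amino acid transporter, had 10.6 and 15.8 RPKM at 1 h and 0.471 and 0.512 RPKM at 2 h. Both replicates fell with a limma log2 fold change of −4.46 ± 0.39 (SE, adjusted p = 1.63e-05). *Igf1*, a growth factor, had 8.09 and 7.74 RPKM at 1 h and 0.429 and 0.241 RPKM at 2 h. At 2 h both libraries were below 1 RPKM and the limma log2 fold change was −4.24 ± 0.40 (SE, adjusted p = 2.13e-05). *Slco4a1*, an organic anion transporter, had 4.80 and 4.99 RPKM at 1 h and 0.130 and 0.0641 RPKM at 2 h. It was near 0 in both 2 h libraries and fell with a limma log2 fold change of −4.69 ± 0.92 (SE, adjusted p = 0.00223). *Cd9*, a tetraspanin, had 5.48 and 5.34 RPKM at 1 h and 0.191 and 0.111 RPKM at 2 h. It was also near 0 at 2 h and fell with a limma log2 fold change of −4.47 ± 0.73 (SE, adjusted p = 0.000668).

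Further genes were among the 15 largest falls. *Rps6ka2*, a kinase activated by ERK, had 6.13 and 4.37 RPKM at 1 h and 0.368 and 0.119 RPKM at 2 h. It fell to below 1 RPKM in both 2 h libraries, with a limma log2 fold change of −4.04 ± 0.87 (SE, adjusted p = 0.00396). *Agpat4*, an acyltransferase, had 4.11 and 5.66 RPKM at 1 h and 0.193 and 0.150 RPKM at 2 h. It was low in both 2 h libraries, with a limma log2 fold change of −4.19 ± 0.35 (SE, adjusted p = 1.35e-05). *Cd300lb*, an activating receptor, had 4.84 and 3.85 RPKM at 1 h and 0.227 and 0.119 RPKM at 2 h. It too was low in both 2 h libraries, with a limma log2 fold change of −4.05 ± 0.53 (SE, adjusted p = 0.000165). *Cdk18*, a kinase, had 5.97 and 4.74 RPKM at 1 h and 0.310 and 0.165 RPKM at 2 h. The fall was seen in both replicates with a limma log2 fold change of −4.04 ± 0.67 (SE, adjusted p = 0.000735). *Plxna2*, a semaphorin receptor, had 4.17 and 2.29 RPKM at 1 h and 0.156 and 0.0560 RPKM at 2 h. R1 was the higher at each time, and the limma log2 fold change was −4.0 ± 0.47 (SE, adjusted p = 9.02e-05).

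Further genes stood among the 15 largest rises. *Vcan*, the matrix proteoglycan versican, had 0.214 and 0.238 RPKM at 1 h and 4.22 and 7.23 RPKM at 2 h. *Cnn3*, an actin-binding calponin, had 0.199 and 0.127 RPKM at 1 h and 4.04 and 4.13 RPKM at 2 h. *Phf11c* had 0.135 and 0.156 RPKM at 1 h and 4.17 and 5.61 RPKM at 2 h. Each was below 1 RPKM in both 1 h libraries. The limma log2 fold change of *Vcan* was 4.11 ± 0.65 (SE, adjusted p = 0.000507), that of *Phf11c* was 4.33 ± 0.49 (SE, adjusted p = 7.27e-05), and that of *Cnn3* was 4.0 ± 0.99 (SE, adjusted p = 0.00876), the last call lost without 1 h R2 (adjusted p = 0.0561) or 2 h R2 (adjusted p = 0.0538). *Olfr56*, annotated as an olfactory receptor gene, had 1 and 2 reads at 1 h and 100 and 170 reads at 2 h. Both 1 h libraries were thus at the floor and both 2 h libraries above it. Set against 3 reads, the rise was at least 57.1-fold.

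Macrophage markers were tested as a list too. Of 26 tested of 36, 3 (11.5%) were higher at 2 h, 4 (15.4%) lower and 19 not called, against 13.8% higher and 16.5% lower of all genes tested (median log2 fold change 0.12, from −0.19 without 1 h R2 to 0.34 without 1 h R1), with 8 higher and 5 lower (25.3% and 24.1% of all genes) under the replicate block and 0, 0, 0 and 0 higher and 2, 4, 3 and 3 lower without 1 h R1, 1 h R2, 2 h R1 and 2 h R2. Their RPKM summed to 335 and 241 at 1 h and 272 and 250 at 2 h, *Lgals3* being the most abundant at 1 h and *Fcgr1* at 2 h. The 14 with means above 3 RPKM at both times gave 0 higher and 1 lower in a test of such genes alone (median −0.18). *Mertk*, the receptor for engulfing dying cells, had 0.963 and 0.476 RPKM at 1 h and 6.82 and 7.2 RPKM at 2 h. The rise was seen in both replicates with a limma log2 fold change of 3.18 ± 1.00 (SE, adjusted p = 0.0285), a call lost without any 1 of the 4 libraries (adjusted p from 0.0632 to 0.153). *Tfec*, a transcription factor of macrophages, had 1.42 and 1.11 RPKM at 1 h and 4.15 and 3.47 RPKM at 2 h. R1 and R2 both rose, with a limma log2 fold change of 1.52 ± 0.44 (SE, adjusted p = 0.0196), a call lost without any 1 of the 4 libraries (adjusted p from 0.0544 to 0.114). *Ctss*, a protease of antigen processing, had 5.10 and 4.49 RPKM at 1 h and 10.5 and 10.8 RPKM at 2 h. The groups were separate and the limma log2 fold change was 1.14 ± 0.40 (SE, adjusted p = 0.0475), not called without any 1 of the 4 libraries (adjusted p from 0.114 to 0.176).

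*Itgb2*, the β chain of leukocyte integrins, had 3.18 and 4.61 RPKM at 1 h and 0.570 and 0.550 RPKM at 2 h. At 2 h both libraries were below 1 RPKM and it fell with a limma log2 fold change of −2.57 ± 0.43 (SE, adjusted p = 0.000748). The protease gene *Ctsl* had 4.14 and 3.45 RPKM at 1 h and 1.83 and 1.60 RPKM at 2 h. At 2 h both libraries were the lower, with a limma log2 fold change of −1.10 ± 0.23 (SE, adjusted p = 0.00307). *Csf1r*, shown above, fell with a limma log2 fold change of −1.52 ± 0.39 (SE, adjusted p = 0.0101), a call lost without 1 h R1 (adjusted p = 0.0607) or 2 h R1 (adjusted p = 0.0554). *Fcgr1*, the high-affinity IgG receptor, had 2.61 and 3.69 RPKM at 1 h and 31.0 and 30.3 RPKM at 2 h. Its groups were far apart in these libraries, with a limma log2 fold change of 3.26 ± 1.46 (SE, adjusted p = 0.108) and adjusted p = 0.00826 with the replicate block.

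Death and survival genes were tested in 14 of 31 cases, of which 2 (14.3%) were higher at 2 h, 3 (21.4%) lower and 9 not called, against 13.8% higher and 16.5% lower of all genes tested (median log2 fold change −0.59, from −0.94 without 1 h R2 to −0.17 without 1 h R1; 3 higher and 4 lower (25.3% and 24.1% of all genes) with the replicate block). Leaving out a library left 1, 1, 1 and 1 higher and 1, 2, 3 and 1 lower without 1 h R1, 1 h R2, 2 h R1 and 2 h R2. Of these, the 8 with means above 3 RPKM at both times gave 0 higher and 1 lower in a test of such genes alone (median −0.59). *Casp8*, the initiator caspase of death receptors, had 1.17 and 1.22 RPKM at 1 h and 5.90 and 6.73 RPKM at 2 h. Both replicates rose with a limma log2 fold change of 2.31 ± 0.30 (SE, adjusted p = 0.000151). *Mlkl*, the executor of necroptosis, had 2.64 and 2.33 RPKM at 1 h and 6.86 and 6.81 RPKM at 2 h. Its 2 h libraries were above its 1 h libraries, with a limma log2 fold change of 1.43 ± 0.48 (SE, adjusted p = 0.0379), not called without any 1 of the 4 libraries (adjusted p from 0.102 to 0.148).

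*Bcl2l11*, which encodes the killer BIM, had 10.2 and 14.9 RPKM at 1 h and 2.78 and 3.20 RPKM at 2 h. The groups were far apart and it fell with a limma log2 fold change of −2.01 ± 0.42 (SE, adjusted p = 0.00324). *Bcl2l1*, which encodes the survival protein BCL-XL, had 15 and 16.6 RPKM at 1 h and 5.0 and 3.04 RPKM at 2 h. It fell too, with a limma log2 fold change of −1.99 ± 0.57 (SE, adjusted p = 0.0182), a call lost without 1 h R1 (adjusted p = 0.0658) or 1 h R2 (adjusted p = 0.0874) or 2 h R2 (adjusted p = 0.140). *Mdm2*, the ubiquitin ligase of p53, had 50.5 and 43.4 RPKM at 1 h and 16.4 and 10 RPKM at 2 h. It was lower in both 2 h libraries, with a limma log2 fold change of −1.86 ± 0.48 (SE, adjusted p = 0.0113), not called without 1 h R1 (adjusted p = 0.0654) or 2 h R2 (adjusted p = 0.108).

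Of 8 inflammatory mRNA decay genes tested of 27, 1 was higher at 2 h, 2 lower and 5 not called, against 13.8% higher and 16.5% lower of all genes tested (median log2 fold change −0.31, from −0.27 without 1 h R2 to −0.15 without 1 h R1), and 0, 0, 0 and 0 higher and 1, 1, 2 and 1 lower without 1 h R1, 1 h R2, 2 h R1 and 2 h R2. Here the 7 with means above 3 RPKM at both times gave 0 higher and 1 lower in a test of such genes alone (median −0.40). *Zc3h12a*, the RNase Regnase-1 that degrades cytokine mRNAs, had 13.7 and 12.1 RPKM at 1 h and 7.44 and 5.13 RPKM at 2 h. R1 and R2 both fell with a limma log2 fold change of −1.04 ± 0.29 (SE, adjusted p = 0.0166), a call lost without 1 h R1 (adjusted p = 0.0927) or 1 h R2 (adjusted p = 0.0557) or 2 h R2 (adjusted p = 0.160). Its relative *Zc3h12c* had 11.3 and 11.7 RPKM at 1 h and 3.34 and 3.31 RPKM at 2 h. The replicates were nearly equal and the limma log2 fold change was −1.76 ± 0.24 (SE, adjusted p = 0.000194). *Dcp2*, the decapping enzyme, had 3.34 and 3.27 RPKM at 1 h and 8.58 and 9.63 RPKM at 2 h. At 2 h both libraries were the higher and it rose with a limma log2 fold change of 1.43 ± 0.50 (SE, adjusted p = 0.0450), not called without any 1 of the 4 libraries (adjusted p from 0.114 to 0.178).

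**Figure D2:**
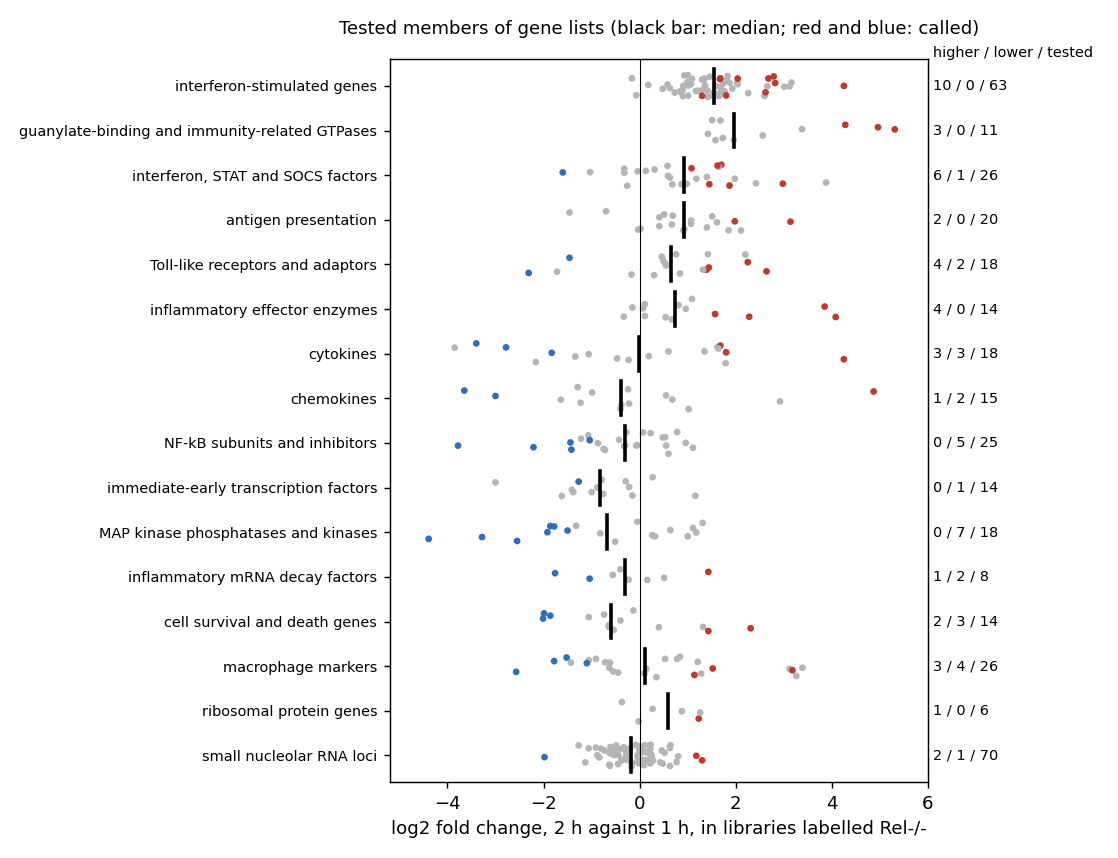
Log2 fold change (x axis) of the tested genes of 16 gene lists at 2 h against 1 h in the libraries labelled *Rel*-/-, 1 point per gene, with black bars at medians, red and blue for genes higher and lower by limma at an adjusted p below 0.05, grey for genes not called, and counts at the right. Interferon-stimulated genes had 10 (15.9%) higher and 0 lower of 63. MAP kinase phosphatases and kinases had 0 higher and 7 (38.9%) lower of 18. Of all genes tested, 13.8% were higher and 16.5% lower.

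Short RNA loci inside longer genes count the nascent RNA of the host too, so their reads cannot be told apart from it. Of 226 microRNA loci tested of 1170, 21 (9.3%) were higher and 15 (6.6%) lower, against 13.8% and 16.5% of all genes (median log2 fold change −0.03, from −0.23 without 1 h R2 to 0.12 without 2 h R2), 35 higher and 36 lower (25.3% and 24.1% of all genes) with the replicate block, and 13, 15, 13 and 12 higher and 8, 5, 9 and 10 lower without 1 h R1, 1 h R2, 2 h R1 and 2 h R2. The 137 with means above 3 RPKM at both times gave 0 higher and 1 lower in a test of such genes alone (median 0.00). *Mir7072*, within *Nlrc5*, had 1.47 and 4.42 RPKM at 1 h and 30.0 and 61.8 RPKM at 2 h. It rose as its host did, with a limma log2 fold change of 4.02 ± 0.92 (SE, adjusted p = 0.00580), a call lost without 1 h R1 (adjusted p = 0.0599) or 2 h R2 (adjusted p = 0.0591). *Mir6972*, within *Cfb*, had 1.72 and 0.460 RPKM at 1 h and 14.1 and 18.7 RPKM at 2 h. It held 1 read in 1 h R2, under the floor of 3 reads, and rose with its host, with a limma log2 fold change of 4.01 ± 0.59 (SE, adjusted p = 0.000276). *Mir7023*, within *Pik3cd*, had 1.72 and 1.38 RPKM at 1 h and 28.1 and 27.8 RPKM at 2 h. It held 3 reads in 1 h R2, at the floor, with a limma log2 fold change of 4.10 ± 0.65 (SE, adjusted p = 0.000507). *Mir8091* had 0.950 and 0.636 RPKM at 1 h and 5.44 and 5.73 RPKM at 2 h. It held 3 reads in 1 h R2, overlaps no other gene of the table and lies next to *Lcor*, which was also called higher. *Mir8091* rose in both replicates with a limma log2 fold change of 2.69 ± 0.35 (SE, adjusted p = 0.000151).

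Other microRNA loci fell. *Mir3075*, within *Zmiz1*, had 14.5 and 20.8 RPKM at 1 h and 1.70 and 0.361 RPKM at 2 h. It was high in both 1 h libraries and held 1 read in 2 h R2, with a limma log2 fold change of −4.26 ± 0.65 (SE, adjusted p = 0.000382). *Mir3092*, within *Fndc3b*, had 13.1 and 19.0 RPKM at 1 h and 1.13 and 1.92 RPKM at 2 h. It held 3 reads in 2 h R1 and fell in each replicate, with a limma log2 fold change of −3.34 ± 0.41 (SE, adjusted p = 0.000114). *Mir664*, within *Rab3gap2* and overlapping the small nucleolar RNA *Snora36b*, had 5.74 and 6.83 RPKM at 1 h and 2.09 and 1.33 RPKM at 2 h. It held 3 reads in 2 h R2, and its limma log2 fold change was −1.85 ± 0.35 (SE, adjusted p = 0.00168). Fitted folds of loci at the floor are least sure.

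The mature microRNAs of these loci, from RefSeq on GRCm38.p6, are given to identify the products that the loci could yield, with the seed (bases 2 to 8) in capitals. None was held for *Mir6972*. No seed was shared among them.
miR-664-5p: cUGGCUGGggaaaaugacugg
miR-664-3p: uAUUCAUUuacuccccagccua
miR-7072-5p: gAGGGGAGacaagaggcaaggc
miR-7072-3p: cUAGCUUCucuucuuccccag
miR-7023-3p: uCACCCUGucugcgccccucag
miR-8091: aGGAGUGAgugguaagcuggug
miR-3075-3p: aUCCUUGGccuuccuaggugu
miR-3092-3p: gAAUGGGGcuguuuccccucc
miR-3092-5p: aGGGGAAAaugccuuucuccca

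The other time points of the same cells, whose means were not compared above although the libraries entered the variance, place the called genes on the response. Of the 370 that fell, 300 passed 3 RPKM only at 1 h, and of the 309 that rose, 250 only at 2 h. The shares below are thus mostly of genes chosen by their high time point. They were not split by this, and its part in them was not tested. At 0.5 h, 132 of the 370 genes that fell (35.7%) were more than 2-fold above 0 h, against 11 of the 309 that rose (3.56%) and 433 of all 2237 (19.4%). At 0.5 h 119 of the genes that rose (38.5%) were more than 2-fold below 0 h, against 19 of those that fell (5.14%) and 384 of all (17.2%). At 6 h 162 of the genes that rose (52.4%) were more than 2-fold above 0 h, against 29 of those that fell (7.84%) and 679 of all (30.4%). Genes that fell also had a longer median span (37.0 kb) than those that rose (29.0 kb) or all tested (19.6 kb), and 74 of the 370 were over 100 kb, against 41 of the 309 and 223 of the 2237.

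Single genes followed these courses. *Jdp2* had 1.45 and 1.02 RPKM at 0 h, 15.9 and 12.4 RPKM at 0.5 h and 2.22 and 1.98 RPKM at 6 h, so that 1 h was its highest point. *Kdm6b* had 0.480 and 0.275 RPKM at 0 h, 12 and 17.6 RPKM at 0.5 h and 0.206 and 0.454 RPKM at 6 h, highest at 0.5 h. *Nos2* had 0.0208 and 0.172 RPKM at 0 h, 0.0552 and 0.199 RPKM at 0.5 h and 155 and 130 RPKM at 6 h, and was still far higher at 6 h than at 2 h. *Cxcl9* had 0.00539 and 0.0216 RPKM at 0 h, 0.112 and 0.0833 RPKM at 0.5 h and 0.863 and 0.771 RPKM at 6 h, and so was highest at 2 h. *Mertk* had 4.01 and 2.04 RPKM at 0 h, 2.74 and 2.38 RPKM at 0.5 h and 5.98 and 3.45 RPKM at 6 h, with its lowest values at 1 h.

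**Figure D3:**
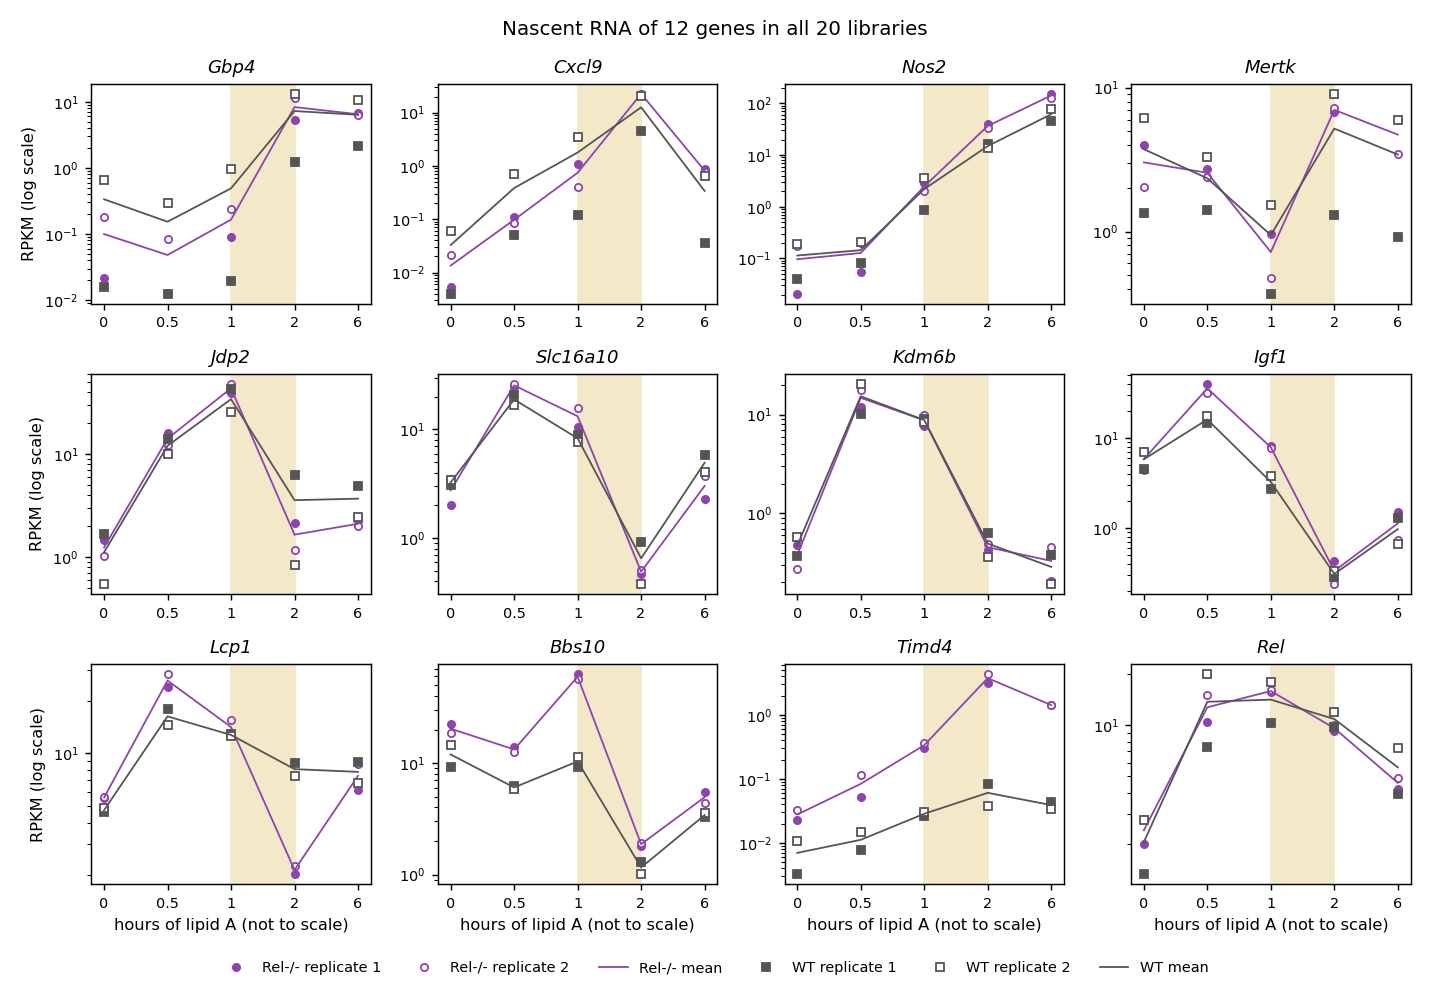
RPKM (log scale) of 12 genes over 0 to 6 h of lipid A, with a point for each library and a line through the means of the 2 replicates, for the libraries labelled *Rel*-/- and for WT, and shading from 1 to 2 h. *Nos2* goes from 2.88 and 2.06 to 39.6 and 33.8 RPKM and *Jdp2* from 39.1 and 48.2 to 2.12 and 1.17 RPKM between 1 and 2 h in the libraries labelled *Rel*-/-.

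The same hour was also read in WT, in libraries that entered the calls above through the variance and not through the means compared. Over the same 2237 genes 279 (12.5%) were higher and 239 (10.7%) lower in WT by limma. Of the 309 genes that rose in the libraries labelled *Rel*-/-, 222 were called higher in WT and 302 were higher in both WT pairs. Of the 370 that fell, 220 were called lower in WT and 358 were lower in both WT pairs. Over all 2237 genes tested, 969 were higher and 812 lower in both WT pairs. By the test of the difference itself, limma called 0 genes (0.0%), with 14 above and 36 below at an unadjusted p under 0.05, and with the replicate block it called 1, *Lcp1*. Other settings called 0 to 13 genes, the pseudocount of 1 calling *Timd4*, *Olfr56* and *Bbs10*. A gene called in only 1 genotype is thus not shown to differ. WT replicate 1 had *Rn45s* at 11.04 to 17.89% of the reads on genes, above the 1.56 to 6.00% of the libraries labelled *Rel*-/-, and the part of this in the WT step was not tested.

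*Lcp1*, which bundles actin in leukocytes, had 12.8 and 15.5 RPKM at 1 h and 2.02 and 2.25 RPKM at 2 h. In WT it had 12.9 and 12.6 RPKM at 1 h and 8.80 and 7.42 RPKM at 2 h. Its 1 h values were alike in the genotypes and its 2 h values were lower in the libraries labelled *Rel*-/-, with a limma difference of the steps of −2.01 ± 0.36 (SE, adjusted p = 0.223), and adjusted p = 0.0371 with the replicate block and adjusted p = 0.0460 with no threshold.

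*Timd4*, a receptor for phosphatidylserine on dying cells, had 0.304 and 0.370 RPKM at 1 h and 3.19 and 4.35 RPKM at 2 h. In WT it had 0.0261 and 0.0309 RPKM at 1 h and 0.0829 and 0.0383 RPKM at 2 h. It rose in the libraries labelled *Rel*-/- and stayed near 0 in WT, with a limma difference of 2.83 ± 0.68 (SE, adjusted p = 0.641). The limma difference of *Timd4* was called with a pseudocount of 1 (adjusted p = 0.000463), with no threshold (adjusted p = 0.00762) and without the trend (adjusted p = 0.00455). *Bbs10* in WT had 9.31 and 11.4 RPKM at 1 h and 1.31 and 1.01 RPKM at 2 h. Its 1 h values were higher in the libraries labelled *Rel*-/-, with a limma difference of −1.85 ± 0.38 (SE, adjusted p = 0.324) and adjusted p = 0.0342 with a pseudocount of 1. *Scarna17*, a small Cajal body RNA, had 4.97 and 5.70 RPKM at 1 h and 2.91 and 3.95 RPKM at 2 h. In WT it had 2.02 and 1.97 RPKM at 1 h and 8.54 and 6.90 RPKM at 2 h, so that 2 h was the higher time in WT and the lower in the other genotype, with a limma difference of −2.53 ± 0.56 (SE, adjusted p = 0.452). *Olfr56* in WT had 0.0344 and 0.0502 RPKM at 1 h and 0.581 and 0.462 RPKM at 2 h. Its 2 h values in WT were below those of the libraries labelled *Rel*-/-, with a limma difference of 2.67 ± 0.72 (SE, adjusted p = 0.999) and adjusted p = 0.00952 with a pseudocount of 1. These 5 genes had the lowest p of this test.

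Markers of other cells were also read. T and NK cell markers had 0 of 15 tested and 12 at the floor in all 4 libraries, including *Cd3e*, and summed to 0.117 and 0.120 RPKM at 1 h and 0.342 and 0.475 RPKM at 2 h, *Lck* being the most abundant at 2 h. B cell markers had 0 of 9 tested and 3 at the floor, including *Cd79b*, and summed to 2.79 and 3.36 RPKM and then 0.910 and 0.863 RPKM, *Blnk* being the most abundant. Markers of stroma and endothelium had 0 of 13 tested and 6 at the floor, including *Col1a1*, and summed to 1.01 and 0.941 RPKM and then 1.35 and 1.86 RPKM, *Kdr* being the most abundant. Erythroid and megakaryocytic markers had 0 of 14 tested and 10 at the floor, including *Gata1*, and summed to 2.80 and 0.797 RPKM and then 1.09 and 1.34 RPKM, *Pf4* being the most abundant. Granulocyte and mast cell markers had 1 of 19 tested, *Csf3r*, not called (higher with the replicate block), and 8 at the floor, including *Ly6g* and *Elane*, and summed to 3.77 and 5.17 RPKM and then 10.8 and 12.7 RPKM, *Csf3r* being the most abundant. Dendritic cell markers had 2 of 12 tested, *Bst2* and *Tcf4*, not called (*Tcf4* higher with the replicate block), and 1 at the floor, *Cd209a*, and summed to 9.34 and 6.64 RPKM and then 23.2 and 15.4 RPKM, *Bst2* being the most abundant, which interferon also induces.

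Single genes carried some of these sums. Without *Csf3r* the granulocyte list summed to 0.411 and 0.517 RPKM at 1 h and 0.441 and 0.420 RPKM at 2 h. Without *Lck* the T and NK list summed to 0.0912 and 0.109 RPKM at 1 h and 0.118 and 0.0851 RPKM at 2 h. Without *Blnk* the B cell list summed to 0.0763 and 0.0849 RPKM at 1 h and 0.136 and 0.128 RPKM at 2 h. The B cell rest was thus higher at 2 h, as were the dendritic, stroma and erythroid rests given next, whereas the T and NK and granulocyte rests overlapped between the times. Such small sums rest partly on genes at the floor, where 1 read is more RPKM at lower depth. Without *Bst2* the dendritic list summed to 2.71 and 3.04 RPKM at 1 h and 4.86 and 6.58 RPKM at 2 h. Without *Kdr* the stroma list summed to 0.0549 and 0.0831 RPKM at 1 h and 0.266 and 0.509 RPKM at 2 h. Without *Pf4* the erythroid list summed to 0.207 and 0.239 RPKM at 1 h and 0.333 and 0.311 RPKM at 2 h. The part of these cells in the step was not tested.

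These values are limited in what they show. With 2 libraries per group the calls rest on a variance shared across genes and groups, and 101 of the 309 genes that rose and 182 of the 370 that fell kept the call whichever of the 4 libraries was left out. Low, short and overlapping genes are read least surely, and nascent RNA gives no protein level. The step covers all that happens in the second hour of lipid A, including signals between cells, and time and length of treatment cannot be told apart. Reads over the whole *Rel* gene do not separate the genotypes, and the 1 to 2 h step of WT differs from it by no gene in the test without the replicate block, a count that other settings changed.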

How the data were processed

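The authors isolated chromatin-associated RNA, aligned stranded reads to NCBIM37 with HISAT2, used SAMtools and SeqMonk, and deposited RPKM per gene and library. The strand used in counting is not given in the sources used here, so reads of overlapping or antisense genes cannot be told apart. Depth was inferred from the values, as the scale at which the lowest of them are whole reads, and is rounded to 1000 reads. At that scale 100.00% of values up to 300 reads lay within 0.1 of a whole number, no value was 0, and the lowest was 1 read. Depth was 21094000 to 45439000 reads per library, and values at or under 3 reads were taken as the floor, for counting error only. For 24 symbols stored as dates the RefSeq identifier gave the name. Starts count from 1.

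RPKM is not a count, so limma 3.58.1 (R 4.3.3) was fitted to log2(RPKM + 0.1), with eBayes and trend, 10 group means over 20 libraries (10 residual and 2.91 prior degrees of freedom), and Benjamini-Hochberg adjustment over the 2237 genes, 2-sided, at 0.05. The fit was tested on simulated data, and with 2 libraries per group a gene that is not called is not shown to be unchanged. Exact permutation of 2 against 2 libraries was not used, its lowest p being 0.333. Contrasts were the step in the libraries labelled *Rel*-/-, that in WT, and their difference. Python 3.11.15, pandas 2.3.3, numpy 2.4.6, scipy 1.17.1 and matplotlib 3.10.9 did the rest. Replicate numbers mark 2 independent time courses in the study's legend, and deviations of same-numbered libraries correlated across genes, which are not replicates, at 0.62 between 1 and 2 h (0.09 to 0.62 in libraries labelled *Rel*-/-, 0.41 to 0.77 in WT). A fit with 1 term per time course is the replicate block.

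The members and gene lists were chosen with earlier results of these data known. Genes named were the 15 largest rises and 15 largest falls among called genes with separate groups, up to 3 called per list and direction, NF-κB subunits, the 6 genes the study names, the 5 lowest p for the difference, the 5 most abundant genes and those next to the threshold; markers named beside them followed a list. Alternatives were other pseudocounts, thresholds, scalings, variance models, samples and each library left out.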

Additional observations from a re-analysis of the deposited data

Results flagged for a closer look

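*Lcp1* differed between the genotypes in its step from 1 to 2 h, by −2.01 on the log2 scale, in limma with the replicate block (adjusted p = 0.0371). Without the block the limma adjusted p was 0.223. Both libraries labelled *Rel*-/- were lower at 2 h than both WT libraries, and the cause was not tested.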

How the results depend on the processing

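For the libraries labelled *Rel*-/- (309 higher, 370 lower), counts were 645 and 710 with a threshold of 1 RPKM, 69 and 71 with 10 RPKM, 959 and 736 with no threshold, 646 and 575 with the 10 libraries labelled *Rel*-/- alone, and, chosen after seeing the data, 22 and 31 with genes above 3 RPKM at both times. A fit on the 4 libraries alone called 555 higher and 470 lower, and the replicate block called 567 and 539. Among other scalings, RPKM rescaled by the median ratio gave 336 and 385, and quantile normalization gave 446 and 471. With quantile normalization 20 of the 63 interferon-stimulated genes were higher, against 10 in the main fit. Leaving out a library gave 134 to 197 higher and 212 to 293 lower. For WT (279 higher, 239 lower) counts were 615 and 409 with 1 RPKM, 51 and 45 with 10 RPKM, 617 and 376 with no threshold, and 569 and 407 with the replicate block. The difference (0 genes) gave 3 with a pseudocount of 1, 13 with no threshold, 1 without the trend and 1 with the replicate block, and could not be computed, like the WT step, from the 4 or 10 libraries alone. Counts over fewer or more genes follow from the genes tested, and otherwise the cause was not tested.

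The replicate block made *Nfkb1*, *Rel* and *Pcf11* (adjusted p = 0.0472 in limma) called and, beside the markers *Spi1*, *Fcgr1*, *Csf3r* and *Tcf4*, changed no other call of a gene named in the text in this step. It kept all 309 and 370. With a library left out 101 of the 309 and 182 of the 370 were kept in all 4 fits. Of 89 named genes that were called, 51 kept the call in these 4 fits and 68 in all other settings where tested, and none reversed. Uncalled genes changed sign without 1 h R1 and without 2 h R2: *Snord17* was −0.35 and −0.32 (0.79 without 1 h R2), *Srxn1* 0.21 and 0.59 (−1.78 without 2 h R1), *Rmrp* 0.43 and 0.33 (−2.0 without 1 h R2), *Rn45s* 0.40 and 0.48 (−0.80 without 2 h R1) and *Malat1* 0.41 and 0.40 (−0.77 without 1 h R2) on the log2 scale. The cause was not tested. A fit that leaves 1 library in a group assumes that it varies like the others. Depth limits short loci and genes near 3 reads most.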

Other observations

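Of 7 cholesterol synthesis and LXR genes tested of 30, 0 were higher at 2 h, 1 lower and 6 not called, against 13.8% higher and 16.5% lower of all genes tested (median log2 fold change −0.68, from −0.80 without 1 h R2 to −0.35 without 1 h R1; 2 higher and 4 lower (25.3% and 24.1% of all genes) with the replicate block). The 3 with means above 3 RPKM at both times gave 0 higher and 0 lower in a test of such genes alone (median 0.57). The gene called was *Srebf2*, the activator of sterol synthesis, with 4.36 and 4.55 RPKM at 1 h and 1.56 and 1.46 RPKM at 2 h. It fell in both replicates, with a limma log2 fold change of −1.50 ± 0.25 (SE, adjusted p = 0.000687). Of 11 NRF2 and antioxidant genes tested of 27, 2 (18.2%) were higher at 2 h, 1 (9.1%) lower and 8 not called, against 13.8% higher and 16.5% lower of all genes tested (median log2 fold change −0.39, from −1.01 without 2 h R1 to 0.59 without 2 h R2; 3 higher and 2 lower (25.3% and 24.1% of all genes) with the replicate block), and 2, 0, 1 and 2 higher without 1 h R1, 1 h R2, 2 h R1 and 2 h R2. Here the 8 with means above 3 RPKM at both times gave 0 higher and 1 lower in a test of such genes alone (median −0.44). *Nfe2l2*, which encodes NRF2, had 34.7 and 24.9 RPKM at 1 h and 6.86 and 4.38 RPKM at 2 h. Both 2 h libraries were the lower and it fell with a limma log2 fold change of −2.40 ± 0.50 (SE, adjusted p = 0.00317). *Keap1*, whose protein marks NRF2 for degradation, had 2.02 and 1.14 RPKM at 1 h and 6.18 and 4.16 RPKM at 2 h. It went the other way, with a limma log2 fold change of 1.68 ± 0.36 (SE, adjusted p = 0.00396) and no call without 1 h R2 (adjusted p = 0.0534). *G6pdx*, which supplies NADPH, had 1.81 and 0.938 RPKM at 1 h and 4.75 and 3.76 RPKM at 2 h. It rose in both replicates, with a limma log2 fold change of 1.62 ± 0.41 (SE, adjusted p = 0.00966), a call lost without 1 h R2 (adjusted p = 0.106) or 2 h R1 (adjusted p = 0.0671).

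Of 7 glycolysis and HIF1 genes tested of 30, 1 was higher at 2 h, 0 lower and 6 not called, against 13.8% higher and 16.5% lower of all genes tested (median log2 fold change 0.92), the call being *Hk2*, with 3 higher and 0 lower (25.3% and 24.1% of all genes) under the replicate block and 2, 1, 1 and 0 higher without 1 h R1, 1 h R2, 2 h R1 and 2 h R2. Of these, the 3 with means above 3 RPKM at both times gave 0 higher and 0 lower in a test of such genes alone (median 0.92). Of 4 cell cycle genes tested of 36, 0 were higher at 2 h, 1 lower and 3 not called, against 13.8% higher and 16.5% lower of all genes tested (median log2 fold change −0.24, from −0.65 without 1 h R2 to 0.17 without 1 h R1), and 0, 0, 0 and 0 lower without 1 h R1, 1 h R2, 2 h R1 and 2 h R2. The 3 with means above 3 RPKM at both times gave 0 higher and 0 lower in a test of such genes alone (median −0.52). The gene lower in the full test was *Cdk6*, with 11.4 and 13.5 RPKM at 1 h and 5.14 and 5.28 RPKM at 2 h. The groups were separate, with a limma log2 fold change of −1.23 ± 0.36 (SE, adjusted p = 0.0211), a call lost without any 1 of the 4 libraries (adjusted p from 0.0585 to 0.117).

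Of 6 ribosomal protein genes tested of 82, the 3 with means above 3 RPKM at both times gave 0 higher and 0 lower in a test of such genes alone (median −0.02). In the full test 1 of the 6 was higher, *Rps9* (against 13.8% of all genes), with 5.75 and 4.50 RPKM at 1 h and 11.3 and 12.9 RPKM at 2 h. Its limma log2 fold change was 1.23 ± 0.35 (SE, adjusted p = 0.0166), a call lost without 1 h R2 (adjusted p = 0.113) or 2 h R1 (adjusted p = 0.0525) or 2 h R2 (adjusted p = 0.105), the median of the list was 0.58, from 0.27 without 1 h R2 to 1.01 without 1 h R1, and the replicate block called 2 higher and 0 lower (25.3% and 24.1% of all genes). Of 3 oxidative phosphorylation genes tested of 94, 1 was higher, *Atp5k* (against 13.8% of all genes), which passed 3 RPKM at 2 h alone, with 2.02 and 1.17 RPKM at 1 h and 4.53 and 3.53 RPKM at 2 h. Its limma log2 fold change was 1.32 ± 0.40 (SE, adjusted p = 0.0237), a call lost without 1 h R2 (adjusted p = 0.186) or 2 h R1 (adjusted p = 0.130) or 2 h R2 (adjusted p = 0.0650), and the median of the list was 0.27, from −0.03 without 1 h R2 to 0.56 without 1 h R1. Of 4 histone genes tested of 68, limma called 0, against 13.8% higher and 16.5% lower of all genes (median 0.71, from 0.06 without 1 h R2 to 1.36 without 1 h R1; 1 higher and 0 lower (25.3% and 24.1% of all genes) with the replicate block). Of 8 ribosomal and nuclear RNA genes tested of 11, limma called 0 too (median −0.23, from −0.50 without 1 h R2 to 0.41 without 1 h R1).

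Of 70 small nucleolar RNA loci tested of 114, 2 were higher, *Snord53* and *Snord23*, and 1 lower, *Snora36b*, against 13.8% and 16.5% of all genes (median −0.18; 2 higher and 3 lower (25.3% and 24.1% of all genes) with the replicate block), and 1, 0, 0 and 0 higher without 1 h R1, 1 h R2, 2 h R1 and 2 h R2. Of these loci, the 60 with means above 3 RPKM at both times gave 0 higher and 0 lower in a test of such genes alone (median −0.11). *Snord53*, within *Wdr43*, had 11.3 and 8.23 RPKM at 1 h and 22.3 and 25.7 RPKM at 2 h. It was higher in both 2 h libraries, with a limma log2 fold change of 1.30 ± 0.42 (SE, adjusted p = 0.0304), a call lost without any 1 of the 4 libraries (adjusted p from 0.0577 to 0.172). *Snord23*, within *Nop53*, had 2.45 and 1.2 RPKM at 1 h and 4.73 and 3.41 RPKM at 2 h. Its groups were separate too, with a limma log2 fold change of 1.18 ± 0.38 (SE, adjusted p = 0.0296), not called without 1 h R2 (adjusted p = 0.269) or 2 h R1 (adjusted p = 0.174) or 2 h R2 (adjusted p = 0.0617), and 0.69 without 1 h R2. *Snora36b*, which overlaps *Mir664* within *Rab3gap2*, had 4.48 and 5.47 RPKM at 1 h and 1.28 and 1.08 RPKM at 2 h. It fell in both replicates, with a limma log2 fold change of −1.98 ± 0.44 (SE, adjusted p = 0.00470).

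Among the 5 most abundant nascent RNAs, *Rmrp*, the RNA of RNase MRP, had 6230 and 1150 RPKM at 1 h and 3360 and 717 RPKM at 2 h. *Rn45s* had 6610 and 3030 RPKM at 1 h and 6250 and 2570 RPKM at 2 h and *Malat1* 1770 and 776 RPKM at 1 h and 1550 and 690 RPKM at 2 h. R1 was the higher in each of these at both times. *Snord17* had 903 and 1990 RPKM at 1 h and 1070 and 2280 RPKM at 2 h, higher in R2, and *Mir6236* 10400 and 9320 RPKM at 1 h and 13900 and 14700 RPKM at 2 h, higher at 2 h in both. Adjacent called genes made 40 runs that rose (84 genes, at most 3 in a run) and 33 that fell (71 genes, at most 4), some of them a host gene with its own microRNA, and how many would arise by chance was not tested. Among them were *Phf11c*, *Gm45935* and *Setdb2* on chromosome 14.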
